A study of Mus musculus with 18 samples.

Results

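The 42 genes described here drive or restrain cell division: the DNA replication machinery, cyclins and their kinases, the E2F and pocket proteins, mitotic regulators and checkpoint genes. Of these, 40 were listed for their function and 2, Cenpu and Cdca2, because an earlier look at these data had named them. All 42 were found by symbol among the 20665 protein-coding genes that RefSeq places on the 19 mouse autosomes. The question was where NFIA and NFIB, transcription factors of the nuclear factor I (NFI) family, were bound around these genes as medulloblastoma, a cerebellar tumor, formed in mice. Binding was mapped with CUT&Tag, which uses an antibody to tether a transposase to the bound protein and so tags the DNA beside it.

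There were 18 libraries from 9 preparations, each preparation giving 1 NFIA and 1 NFIB library of 100000 cells. Of the preparations, 3 were granule neuron progenitors (GNPs, the dividing precursors of cerebellar granule neurons) from the cerebellum at postnatal day 7, 3 were hyperplasia at postnatal day 28 and 3 were medulloblastomas of adult mice. All were isolated on a Percoll gradient. The mice were a genetically engineered model according to the series' design text, but the alleles and strain of each group are not given in the sources used here. Stage and age changed together and cannot be told apart. No label ties the preparations of a stage to different animals, and the p-values therefore reflect only how preparations varied, possibly for technical reasons.

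In a dividing cell, MCM helicases are loaded onto replication origins by Cdc6 and Cdt1, and Geminin (Gmnn) blocks reloading within the same cycle. Cyclins with their kinases phosphorylate the pocket proteins Rb1, Rbl1 and Rbl2, which releases E2F factors to activate replication genes, whereas a later wave of genes for mitosis is switched on through CCAAT boxes and CHR elements in their promoters. GNPs divide rapidly under Sonic hedgehog and then leave the cycle as granule neurons, and NFI factors are known for promoting their differentiation. NFI dimers recognize a palindrome with TTGGC as its arm, called an NFI arm below, and a CCAAT box that follows a G contains that arm on the other strand.

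The deposited data were lists of peak summits with a score, from which each library's top 30000 on the autosomes were taken. The full lists ran from 49948 to 385466 summits, and depth is unknown. A gene-end summit is one within 1 kb of either end of a gene, and its rank is its place by score among the 30000, where 1 is the highest. Titles gave the target of each library. In 6 libraries the names inside the files carried the other target, so that both libraries of a preparation were combined in the tests. The second NFIA library of hyperplasia stood apart, with 20.4% of its top summits tied at the last score kept. Among granule lineage markers, Zic1 and Neurod1 had a gene-end summit in 18 of 18 libraries. Zic2 had one in 17, Pax6 in 16, Atoh1 in 14 and Barhl1 in 9. None of 4 microglial markers had one in any library. Astrocyte, oligodendrocyte and vessel markers had one in 0 to 2 libraries each. Of 4 Purkinje cell and interneuron markers, Pvalb had one in 17 libraries, Calb1 and Gad2 in 1 each and Pcp2 in none. Counting every summit assigned to a gene, GNP preparations had 37 to 38 over the 6 granule genes. Hyperplasia had 26 to 31 and tumors 32 to 35. In GNPs, hyperplasia and tumors, 4 astrocyte genes had 20 to 24, 22 to 27 and 16 to 22. The 4 oligodendrocyte genes had 20 to 23, 18 to 25 and 19 to 22, in that order. The 4 vessel genes had 20 to 25, 18 to 21 and 21 to 27. The 4 microglial genes had 0 to 1, 1 to 4 and 1 to 3. Granule and astrocyte totals thus overlapped in hyperplasia. As the lists differ in length, the totals do not show more summits per granule gene than per astrocyte, oligodendrocyte or vessel gene. Summits are positions of cutting, not expression.

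Gene-end summits were a regular feature of the cell cycle genes. On average 75.8% ± 1.37 (SD, n = 3 preparations) of the 42 genes had one in GNPs, 73.4% ± 0.687 in hyperplasia and 75.0% ± 6.19 in tumors. Over all 20665 genes the shares were 36.5%, 35.7% and 33.4%. Single libraries ranged from 59.5%, in the second NFIA library of hyperplasia, to 85.7%, and those of the 3 stages overlapped. In that lowest library the share over all genes was also the lowest of the 18, 28.3%. NFIA libraries gave a mean of 73.5% and NFIB libraries 75.9%. The difference between stages was smaller than the spread between tumor preparations, which stood at 67.9%, 78.6% and 78.6%.

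**Figure D1:**
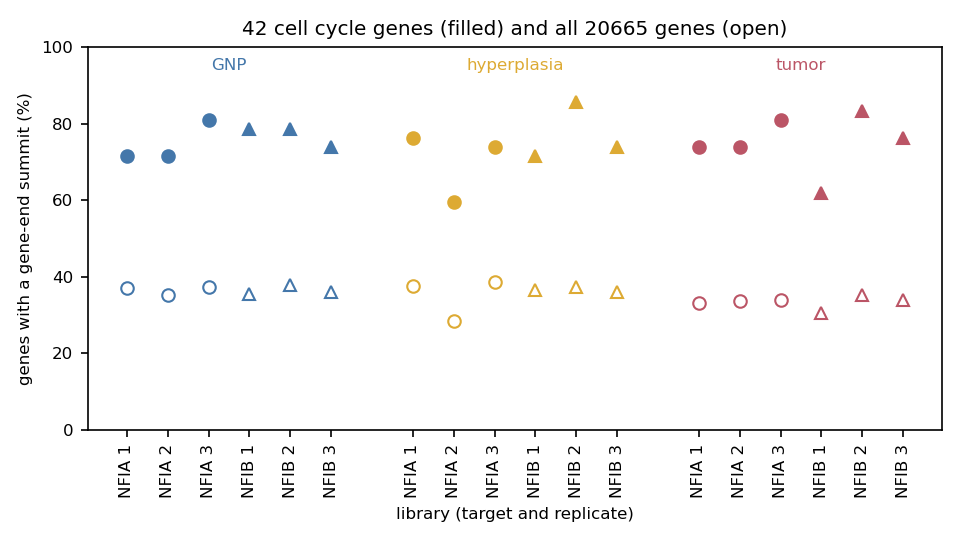
Percentage of genes with a summit within 1 kb of a gene end in each library, for the 42 cell cycle genes (filled) and all 20665 genes (open). Circles are NFIA and triangles NFIB libraries, colored by stage. Every filled point (59.5% to 85.7%) lies above every open point, and the stages overlap.

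A total of 35 of 42 genes (83.3%, against 36.0% of all genes) had a gene-end summit in at least 9 of the 18 libraries, and 15 (35.7%, against 12.9%) had one in all 18. Another 6 had one in 1 to 8 libraries. Cdkn1a, which encodes the CDK inhibitor p21, was alone in having none in any library, as had 41.1% of all genes. RefSeq promoter sequences allowed a look at what the genes shared beyond their function. Promoters of 31 of the 42 genes were matched, and these were rich in CG dinucleotides, with a median of 24 in 300 bases against 14 over 16457 promoters. Among promoters with at least 24 CG dinucleotides, gene-end summits were present in at least 9 libraries at 14 of 16 cell cycle genes (87.5%) and at 60.7% of all 4577 genes. With 12 to 23 CG dinucleotides the figures were 11 of 13 (84.6%) and 54.9%. With 0 to 11 CG dinucleotides they were 1 of 2 and 11.7%. Only 31 of the 42 genes could be placed in these classes. What part base composition has in the contrast with all genes was not tested. Whether the genes are active in these cells was not measured.

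The summits lay at the starts of the genes rather than at their far ends. For the 31 genes with a known strand, 77.4%, 74.7% and 75.8% had their best gene-end summit nearer the start in GNPs, hyperplasia and tumors, and 3.76%, 2.69% and 2.69% nearer the far end. Over 16457 genes with a strand the far-end shares were alike, at 3.73%, 3.70% and 3.80%, and the start shares were 35.3%, 34.5% and 31.9%. Over 425 pairs of a gene and a library, the best summit near a start site had a median position of −72 bp (upstream of it), with quartiles at −179 and 91 bp, and 77.6% were within 300 bp. Positions were tight at some genes. At Cdk4 all 18 summits lay between −158 and −26 bp, and at Cenpu between −187 and −35 bp. At Mcm7 the median was 618 bp and at E2f2 467 bp downstream of the start site, and at E2f1 it was at −615 bp. The start site used for E2f1 is at 154569426, but its RefSeq span runs on to 154569892. The merged site lay 167 bp beyond that end. An end of Necab3 lies 6 bp from E2f1. Ends of Ap4m1 and Cops6 lie within 1 kb of Mcm7, the nearest 90 bp away. Summits at E2f1 and Mcm7 may thus equally be counted to a neighbor.

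**Figure D2:**
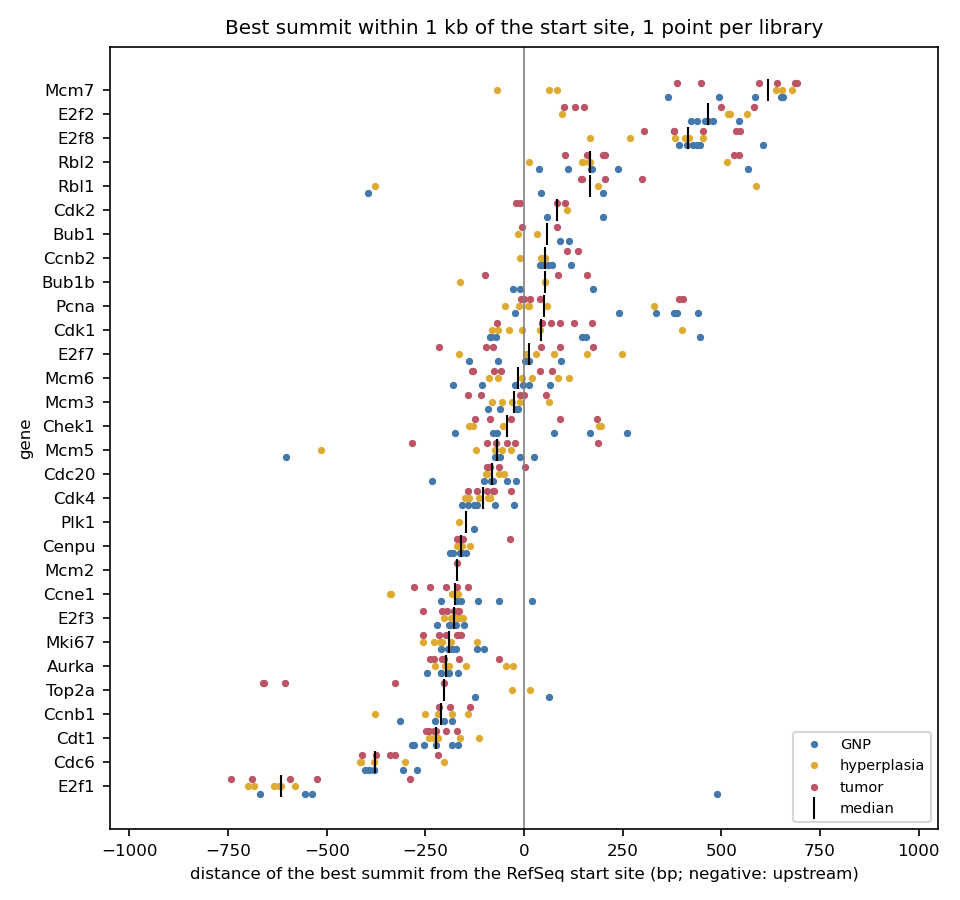
Distance in bp of the best summit within 1 kb of the RefSeq start site, 1 point per library in which there was one, for the genes with a promoter in the table. Ticks mark medians over libraries. Cdk4, Cenpu, E2f3 and Cdt1 have tight clusters upstream in all 3 stages, while Mcm7, E2f2 and E2f8 lie downstream of the listed start.

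The promoters of the 5 best-ranked genes with an entry in the RefSeq table are printed to show the letters just upstream of the starts with the most prominent summits. Each line gives the 250 bases before the start site, 5′ to 3′ on the strand of the gene, in assembly GRCm38.p6. Capitals mark 4 motifs on either strand. These were the NFI arm TTGGC and the CCAAT box. The CHR element was searched as TTTGAA. An E2F site was any of TTTGGCGC, TTTCCCGC, TTTGGCGG and TTTCCCGG. E2f3 is at chr13:29986064-29986313 (- strand), Cdk4 at chr10:127063285-127063534 (+ strand), Cenpu at chr8:46551819-46552068 (+ strand), Cdt1 at chr8:122567765-122568014 (+ strand) and Cdk1 at chr10:69352913-69353162 (- strand).
E2f3: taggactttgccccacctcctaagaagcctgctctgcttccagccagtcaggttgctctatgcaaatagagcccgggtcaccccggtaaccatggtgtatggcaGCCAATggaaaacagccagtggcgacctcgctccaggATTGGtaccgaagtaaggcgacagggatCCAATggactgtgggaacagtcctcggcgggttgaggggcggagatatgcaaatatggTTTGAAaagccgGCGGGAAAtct
Cdk4: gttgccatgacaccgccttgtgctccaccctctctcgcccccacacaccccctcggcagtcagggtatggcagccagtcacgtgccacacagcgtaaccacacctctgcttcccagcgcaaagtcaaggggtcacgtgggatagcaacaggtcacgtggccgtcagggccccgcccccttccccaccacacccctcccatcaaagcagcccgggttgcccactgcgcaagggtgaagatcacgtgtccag
Cenpu: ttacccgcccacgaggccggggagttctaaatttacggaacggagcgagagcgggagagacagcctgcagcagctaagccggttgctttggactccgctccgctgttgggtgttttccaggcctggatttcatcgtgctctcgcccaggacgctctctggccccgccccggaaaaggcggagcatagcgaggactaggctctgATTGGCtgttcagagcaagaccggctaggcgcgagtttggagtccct
Cdt1: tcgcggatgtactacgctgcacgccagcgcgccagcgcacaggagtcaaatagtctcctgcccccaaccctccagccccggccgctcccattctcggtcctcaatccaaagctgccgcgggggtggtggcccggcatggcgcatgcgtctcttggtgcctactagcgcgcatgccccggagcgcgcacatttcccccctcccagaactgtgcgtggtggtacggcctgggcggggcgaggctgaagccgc
Cdk1: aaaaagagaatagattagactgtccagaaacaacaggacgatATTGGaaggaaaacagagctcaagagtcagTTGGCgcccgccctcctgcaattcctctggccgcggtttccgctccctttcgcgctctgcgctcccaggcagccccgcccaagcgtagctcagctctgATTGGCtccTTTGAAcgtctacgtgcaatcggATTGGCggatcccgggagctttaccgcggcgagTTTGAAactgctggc

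The stretch of E2f3 held 3 CCAAT boxes, 1 NFI arm overlapping the first of them, a CHR element and an E2F site. Its summits had a median position of −178 bp from the start. Cenpu held a single CCAAT box overlapping an NFI arm, at −47 to −43 from the start, and its summits had a median position of −160 bp. Cdk1 held 3 NFI arms, 3 CCAAT boxes and 2 CHR elements, but its summits had a median position of 42.5 bp after the start and 10 of 18 lay downstream, outside the printed bases. The stretches of Cdk4 and Cdt1, with summits at medians of −105 and −223 bp, held none of the 4 motifs. Just after its start, beyond the printed bases, Cdt1 had an E2F site at 32 to 39 and an NFI arm within it.

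In the 300 bases from 250 before to 50 after the start, no cell cycle promoter held the full NFI palindrome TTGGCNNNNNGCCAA, which 0.0425% of all 16457 promoters held. NFI arms were in 64.5% against 48.4% of all promoters. CCAAT boxes were in 71.0% against 39.1%, and NFI arms often overlapped them or an E2F site: of the 20 cell cycle promoters with an NFI arm, 9 had one that lay in no E2F site and shared fewer than 4 letters with a CCAAT box. That was 29.0% of the 31, against 36.7% of all promoters. E2F sites were in 35.5% against 4.27%, and CHR elements in 38.7% against 15.9%. Of 8 licensing and replication promoters, 6 held an E2F site, 1 a CHR element and 6 a CCAAT box. Of 8 mitotic promoters, none held an E2F site, 6 a CHR element and 8 a CCAAT box. The E2F and pocket protein genes held E2F sites and CHR elements in 3 of 7 each, and cyclins and their kinases in 1 and 2 of 6. At the 20 cell cycle promoters with an NFI arm, gene-end summits were found in 81.9% of libraries on average, and at the 11 without in 65.7%. Over all genes these means were 40.5% and 31.7%. They were found in 88.4% at the 11 cell cycle promoters with an E2F site and in 69.4% at the 20 without, and over all genes in 54.3% and 35.1%. For CCAAT boxes the order was the other way among the cell cycle genes, with 74.7% at the 22 with one and 79.6% at the 9 without (all genes 39.7% and 33.5%). For CHR elements the means were 70.8% at the 12 with one and 79.5% at the 19 without (all genes 24.6% and 38.1%). These are shares of letters, not of bound sites, and promoter base composition moves with them.

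Among the licensing and replication genes, gene-end summits were present in 86.1% of gene and library pairs. Mcm4, Mcm6 and Mcm7 of the MCM helicase, the sliding clamp Pcna and the loader Cdt1 had one in all 18 libraries. Mcm4 ranked between 280 and 4773, with a geometric mean of 1536 that was among the 5 best, but no summit was assigned to it. The end of Prkdc, the DNA repair kinase, lies 44 bp away and was nearer to each of them. Mcm2, which encodes another helicase subunit, differed from its partners, with a gene-end summit in 1 library only, NFIA of the first tumor, at rank 20331. Its other site, 2946 bp inside the gene, was hit in 6, 4 and 6 of 6 libraries of GNPs, hyperplasia and tumors.

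Cyclins and their kinases had gene-end summits in 75.0% of pairs. Cdk4, the kinase that cyclin D activates in G1, ranked between 164 and 4042 with a mean of 638. Cdk1, the kinase of mitotic entry, ranked between 476 and 6674 with a mean of 1996. Cdk2, the partner of cyclin E, had a gene-end summit in 2, 1 and 4 libraries of the 3 stages. The mitotic cyclin Ccnb2 had one in 5, 4 and 2, with a mean rank of 23015. Cdk4 has the end of Tspan31 1 bp away, so its summits cannot be assigned to one of the pair. Such a neighbor within 1 kb was found at 13 of the 42 genes (31.0%) and at 25.6% of all genes.

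E2F and pocket protein genes had gene-end summits in 78.9% of pairs. E2f3, an activator of S phase, had the second-best mean rank, 585. Its ranks were 2192, 716, 4334, 160, 839 and 334 in the 6 GNP libraries, 393, 206, 651, 128, 261 and 88 in hyperplasia, and 2312, 1600, 2940, 562, 839 and 267 in tumors. Single hyperplasia libraries overlapped with those of both other stages, although the NFIA libraries alone did not. Per preparation, the geometric mean ranks were 285, 289 and 152 in hyperplasia, 1253, 833 and 529 in GNPs and 1923, 1285 and 473 in tumors. Every hyperplasia preparation was thus higher on the list than every other, while GNPs and tumors overlapped. The repressor E2f7 and the pocket protein gene Rbl2 also had a summit in every library. Rb1, the retinoblastoma gene, and its relative Rbl1 were among the 5 worst-ranked of the genes with a summit in at least 9 libraries, with means of 22828 and 24285. E2f4 had one in 1 library of each stage.

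Mitotic genes had gene-end summits in 63.6% of pairs. Their geometric mean ranks had the widest range of the 5 roles, from 78.2 at Cdca2 to 28944 at Aurkb. Cdca2, which recruits a phosphatase to chromosomes as mitosis ends, had the best-ranked site of all 42. Its ranks were 246, 174, 183, 42, 147 and 19 in GNPs, 64, 71, 161, 11, 20 and 28 in hyperplasia, and 121, 325, 197, 47, 114 and 69 in tumors. That site (chr14:67715749-67716030) lies 48 bp beyond one end of Cdca2 and the end of Kctd9 is 245 bp away, so it may equally be counted to Kctd9. Cenpu, a subunit of the inner kinetochore, had a mean rank of 1038. Mki67, which encodes the proliferation marker Ki-67, and Aurka, a spindle kinase, also had a gene-end summit in all 18. Ends of Cstf1 and Fam210b lie within 1 kb of Aurka, the nearest 241 bp away, so its summits may equally be counted to a neighbor. At the other extreme Top2a, the topoisomerase that untangles chromosomes, had a mean rank of 26909 and Bub1b, of the spindle checkpoint, one of 24655. Plk1 had a summit in 2 libraries and Aurkb in 3.

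Of the 3 checkpoint genes, Wee1, which holds Cdk1 inactive, had a gene-end summit in 18 libraries, with ranks of 448 to 7979, and Chek1 in 16. The sites assigned to Cdkn1a lay 3737 and 11995 bp outside it and 4496 bp inside, each in 4 or 5 libraries only. The window decides how some sites, merged over libraries, are classed. The main sites of Ccna2 and Ccne2 had centers 1019 and 1092 bp from the nearer gene end, just outside it, and that of E2f8 792 bp, just inside. Single summits still counted as gene-end summits in 15 libraries at Ccna2 and in 10 at Ccne2.

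**Figure D3:**
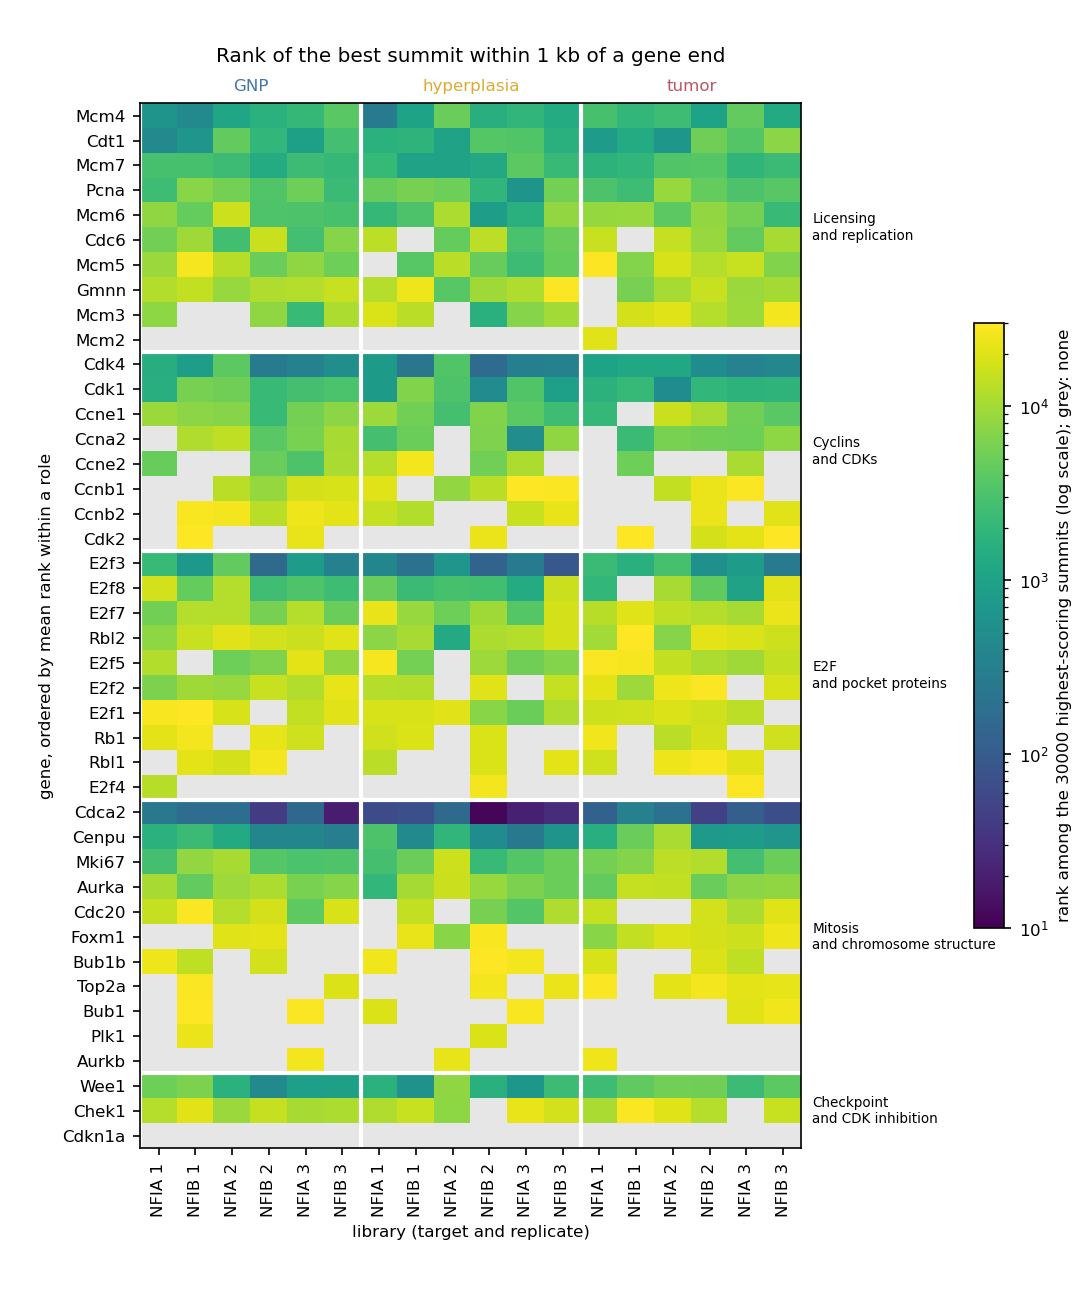
Rank of the best gene-end summit of each of the 42 genes in each of the 18 libraries, on a log color scale, with grey where there was none among the top 30000. Genes are grouped by role and ordered by mean rank. Cdca2, E2f3, Cdk4 and Cenpu are dark across all stages, and Cdkn1a is grey throughout.

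Ranks of gene-end summits were compared between stages for 35 of the 42 genes, those with one in at least 9 libraries, in a limma fit on log2 rank over all 7445 such genes. No cell cycle gene passed an adjusted p of 0.05 in any of the 3 comparisons. Over all genes 0.416% passed for hyperplasia against GNPs, 0.927% for tumors against GNPs and 1.48% for tumors against hyperplasia. At an unadjusted p under 0.05 there were 2, 3 and 1 of the 35 (5.71%, 8.57% and 2.86%), against 11.7%, 14.2% and 17.9% of all genes tested. The median log2 difference of the 35 genes was −0.15 for hyperplasia minus GNPs (all genes tested −0.11), 0.27 for tumors minus GNPs (0.20) and 0.52 for tumors minus hyperplasia (0.31), where a positive value is a lower place in the list. E2f3 had the largest difference between tumors and hyperplasia, 2.18 ± 0.727 (SE) on the log2 scale with a limma adjusted p of 0.103. It passed with an adjusted p of 0.0368 when the second NFIA library of hyperplasia was left out, where 311 genes passed.

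Presence differed most between stages at Foxm1, the transcription factor of the mitotic gene wave. Its gene-end summits were found in 2 of 6 GNP, 3 of 6 hyperplasia and 6 of 6 tumor libraries, at tumor ranks of 7249 to 24852. Ends of Rhno1 and Tex52 lie within 1 kb of Foxm1, the nearest 83 bp away, so these summits may equally be counted to a neighbor. Summits assigned to Foxm1 by the nearest gene span numbered 3, 3 and 0 in the tumor preparations. Its log2 rank did not pass the test. Foxm1 and Mcm2 are on chromosome 6, which held 7.07% ± 0.155 (SD, n = 3) of top summits in tumors against 5.25% ± 0.0789 in GNPs and 5.39% ± 0.0885 in hyperplasia. With log2 ranks centered by chromosome, the difference of Foxm1 between tumors and GNPs went from −0.76 to −0.39. Top2a had summits in 2, 2 and 5 libraries and Cdk2 in 2, 1 and 4. Ccnb2 went the other way, with summits in 5, 4 and 2. Cdc20, Ccne2, E2f2 and Ccnb1 each differed by 2 libraries between stages.

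The number of summits assigned to a gene, gene ends and other sites together, was tested for 28 of the 42 genes, those with a mean of at least 2 per preparation, in a limma fit on log2(summits + 0.5) over 8555 genes. Cenpu was the only one to pass. It had 2, 2 and 2 summits in the GNP preparations, 4, 4 and 4 in hyperplasia and 5, 6 and 5 in tumors, and the stages did not overlap. The increase over GNPs was 0.85 ± 0.107 (SE) on the log2 scale in hyperplasia (limma adjusted p = 0.0411) and 1.22 ± 0.107 in tumors (adjusted p = 0.0154). That between hyperplasia and tumors was 0.37 with an adjusted p of 0.283. Over all genes 0.175%, 0.245% and 0.0584% passed in hyperplasia against GNPs, tumors against GNPs and tumors against hyperplasia. Both libraries of each preparation showed it, with 1 summit in each GNP library, 2 in each hyperplasia library and 2 or 3 in each tumor library. GNPs and hyperplasia share 2 dates in their titles, and within each date every GNP preparation had 2 summits and every hyperplasia preparation 4. With date as a term the limma adjusted p was 0.111. Tumors had 3 dates of their own, so that date and stage cannot be told apart there. Cenpu was included among the 42 because an earlier look at these data had named it, so its call is a description of a gene already picked out. The call in hyperplasia against GNPs was lost with another random order of tied scores (adjusted p = 0.0718) or without any 1 preparation of GNPs or hyperplasia (0.0866 to 0.117), and the call in tumors against GNPs without the second GNP (0.0555), the third GNP (0.0509) or the first tumor preparation (0.0607). With 15000 summits the tumor difference was 0.57 (adjusted p = 0.316).

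Cdca2, included for the same reason, had 3, 4 and 5 summits in GNPs, 7, 7 and 6 in hyperplasia and 7, 6 and 6 in tumors. GNP preparations were all lower than the others, but the log2 differences of 0.69 ± 0.175 (SE) and 0.62 did not pass (limma adjusted p = 0.171 and 0.175). Mcm2 had 3, 3 and 2 summits in GNPs, 2, 1 and 1 in hyperplasia and 3, 2 and 3 in tumors, a log2 difference of −0.81 in hyperplasia against GNPs with an adjusted p of 0.240. E2f2, another activating E2F, had 7, 4 and 5, then 7, 6 and 5, then 4, 2 and 2. Its log2 difference of −0.91 in tumors against GNPs had an adjusted p of 0.211, and it passed (0.0270) when all listed summits were used, scaled to equal totals, a setting in which 312 genes passed in that comparison. Rb1 had a difference of −0.75 and E2f7 of −0.44 in hyperplasia against GNPs, Gmnn of 0.20, and neither these nor E2f5 (0.44), Chek1 (−0.37) or Mki67 (−0.34, or −0.10 when centered by chromosome) in tumors against GNPs passed. Tumors against hyperplasia gave 0.81 for Mcm2 (0.53 when centered by chromosome), 0.69 for E2f5, 0.50 for Rb1, −1.08 for E2f2 and −0.32 for both Gmnn and Ccne2, none of which passed. Over the 28 genes the median differences were −0.08 in hyperplasia against GNPs and 0.03 in tumors against hyperplasia, and the number at an unadjusted p under 0.05 was 3 in each comparison (10.7%), against 13.4%, 14.8% and 11.3% of all genes tested.

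**Figure D4:**
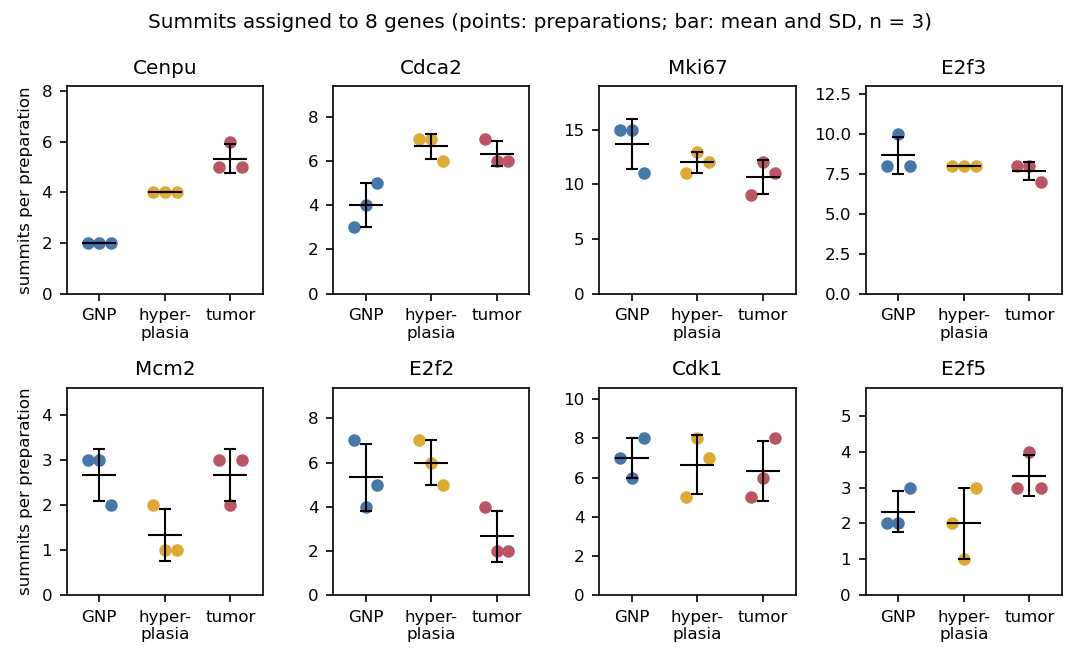
Summits assigned to 8 of the genes in each preparation (points, both libraries summed), with mean and SD (n = 3), by stage. Cenpu goes from 2 in each GNP preparation to 5 or 6 in tumors, whereas the stages overlap for Mki67, E2f3 and Cdk1.

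Sites away from gene ends were examined as regions, each being a stretch within 100 bp of top summits, merged over libraries and counted where 3 or more libraries had a summit in it. Of 79 regions assigned to the cell cycle genes, 39 were at gene ends (49.4%, against 25.0% of all regions with a gene within 100 kb), 13 further inside genes (16.5% against 47.7%) and 27 outside (34.2% against 27.4%). A total of 19 (24.1%) were hit in all 18 libraries, against 15.0% of all. Mki67 had 7 regions, 6 of them outside the gene, and E2f3 and Mcm5 had 5 each. Mcm4 and Plk1 had none.

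The best-ranked sites away from gene ends that were present in all 18 libraries belonged to Ccne1, Cdk1 and Mki67. The site of Ccne1, the cyclin that starts S phase, lay 12809 bp outside the gene (chr7:38084912-38085439), with ranks of 391 to 7108. That of Cdk1 lay 8457 bp outside (chr10:69326497-69326881), with ranks of 244 to 3983. That of Mki67 lay 86552 bp away (chr7:135802712-135803292), with ranks of 758 to 8915. By mean rank they took places 5, 6 and 11 among the 79 regions. The stages overlapped at the sites of Ccne1 and Mki67. At that of Cdk1, hyperplasia ranks of 244 to 1804 did not overlap with GNP ranks of 1809 to 3983, by a narrow margin, and tumors overlapped with both. Assignment was to the nearest gene span, and no contact between these sites and the genes was measured.

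Regions were called gained between stages with a summit in at least 5 of 6 libraries of the later stage and at most 1 of 6 of the earlier, and lost in the opposite case. Of the 79 regions, 2 were gained in hyperplasia against GNPs (over all 41998 regions 2.15% were), 3 in tumors against GNPs (2.28%) and 1 in tumors against hyperplasia (1.20%). None was lost, against 2.78%, 2.52% and 1.08% of all regions. All 3 regions concerned belonged to Cdca2 and Cenpu, the 2 genes included because earlier results had named them, so nothing is read from these shares. Of the 73 regions of the other 40 genes, 0 were gained or lost.

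The Cdca2 region (chr14:67620989-67621470) lies 51951 bp outside the gene. It had a top summit in 0 of 6 GNP libraries and in 6 of 6 in both hyperplasia and tumors. Over the whole lists, beyond the top 30000, it was at ranks 34356 and 71025 in the libraries of the third GNP preparation and was not listed in the other 4. Hyperplasia ranks were 6881, 3278, 4215, 6729, 5266 and 2658, and tumor ranks 18836, 1323, 7235, 20437, 10066 and 12702. GNP libraries thus did not overlap with the others in the whole lists either.

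The first Cenpu region (chr8:46559646-46560095) lies inside the gene, 7851 bp from its nearer end, and had a top summit in 0, 6 and 5 of 6 libraries. In GNPs it was listed in 4 libraries, at ranks 34142, 30078, 125990 and 40027, of which 30078 was only just outside the top 30000. Hyperplasia ranks were 26329, 12440, 7828, 18741, 5130 and 12979. In tumors it was at 7644, 13317, 8204, 24752 and 24307 and was not listed in NFIB of the first tumor. The second Cenpu region (chr8:46569776-46570475), 10443 bp from the nearer end, had a top summit in 0, 0 and 5 libraries. All 6 hyperplasia libraries listed it below the top, at ranks of 35623 to 111874, and 1 GNP library did, at 125023. The tumor ranks were 8882, 27772, 20271, 21387, 27414 and 30765. In the second NFIA library of hyperplasia the rank of 35623 was set by the order of tied scores, which allowed any place from 23869 to 37507, so that hyperplasia and tumors are not shown to be apart.

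**Figure D5:**
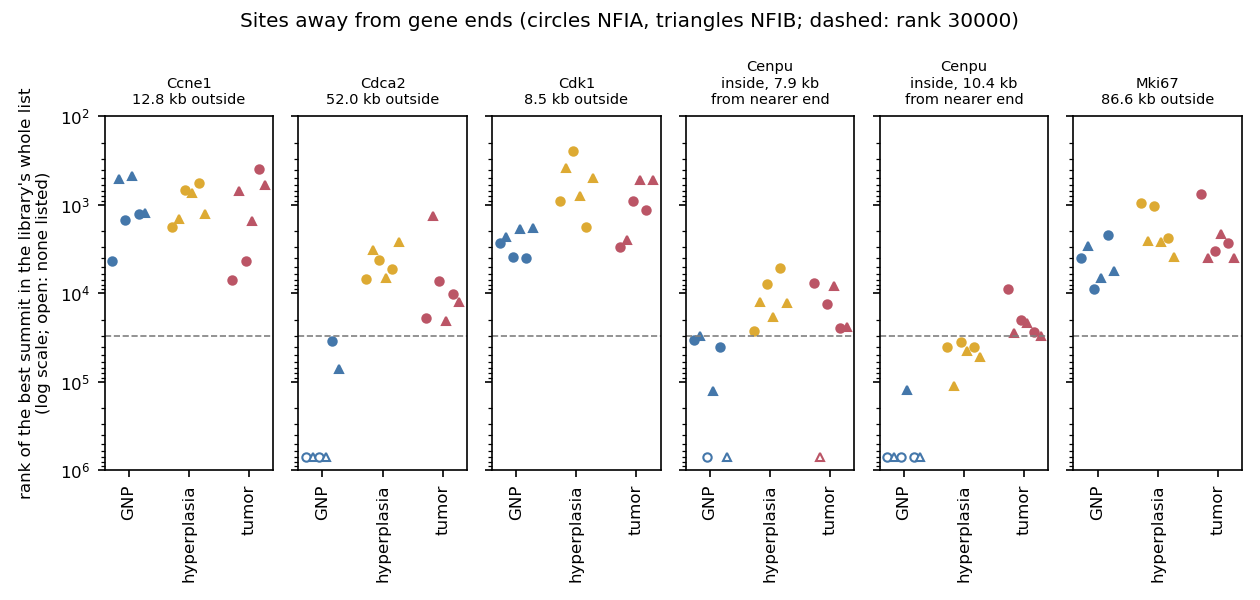
Rank of the best summit in the whole list of each library (log axis, best at the top) at 6 sites away from gene ends, by stage, with circles for NFIA and triangles for NFIB, open where none was listed. The dashed line marks rank 30000. The sites near Ccne1, Cdk1 and Mki67 lie above the line in all 18 libraries, and the others cross it between GNPs and tumors.

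Other genes of the same pathways had gene-end summits at similar rates. Of 42 further replication genes, 31 had one in at least 9 libraries, as had 25 of 32 mitotic genes and 15 of 20 genes for E2F partners, the DREAM complex and checkpoints (a further listed gene was not matched). For summits 18, 17 and 11 genes of these lists were tested, and none passed. For ranks 31, 25 and 15 were tested, and those that passed are all named below. Over all genes 0.927% passed in the rank test of tumors against GNPs and 1.48% in that of tumors against hyperplasia. Whether these lists differ from all genes was not tested. In the rank test, Pola2 of DNA polymerase alpha went from a mean rank of 4964 in GNPs to 19325 in tumors (log2 difference 1.96 ± 0.502 SE, limma adjusted p = 0.0385). Cenpf, Cdc25c and Atm were lower on the list in tumors than in hyperplasia, with log2 differences of 2.16, 2.12 and 2.36 and limma adjusted p of 0.0391, 0.0369 and 0.0300. The median over all 7445 genes tested was 0.31 in that comparison. With NFIA libraries alone or NFIB libraries alone, 0 genes passed in it. Trp53, the gene of the tumor suppressor p53, went the other way. The labels do not say whether this locus is altered in the mice, and its part in these ranks was not tested.

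The geometric mean rank of Trp53 was 17549 in GNPs, 5156 in hyperplasia and 502 in tumors. GNP ranks were 21515, 9924, 22247, 15955, 16273 and 23682. Hyperplasia ranks were 2896, 7821, 3724, 3842, 6458 and 8976. Tumor ranks were 1957, 396, 66, 3130, 358 and 280. GNP libraries did not overlap with either later stage, and tumor and hyperplasia overlapped through a single tumor library. The log2 difference was −5.13 ± 0.575 (SE) in tumors against GNPs (limma adjusted p = 1.20e-08) and −3.36 ± 0.575 in tumors against hyperplasia (adjusted p = 5.83e-04), the former being the most negative of all 7445 genes tested. It passed against GNPs in 20 of 20 alternatives. The call in tumors against hyperplasia was lost with NFIA libraries alone and with NFIB libraries alone, where 0 genes passed. In all 12 hyperplasia and tumor libraries the best summit lay beyond the gene's end of higher coordinate (chromosome 11, 69591873), by 329 to 646 bp. In GNPs the best summit was there in 3 of 6 libraries and within 1 kb of the other end in the remaining 3. The nearest end of another gene, Wrap53, is 98 bp from an end of Trp53, but which end was not recorded. Wrap53 is thus not shown to adjoin the hyperplasia and tumor summits. Whether those lie at the start or the far end of Trp53 was not examined.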

How the data were processed

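Per the submitters' processing notes, the authors used Bowtie2, the mm10 build and MACS2, without versions; pooling and control libraries are not given in the sources used here. In each deposited list a summit is 1 base wide and carries the peak caller's −log10 p-value or q-value (which of these is not stated; lowest 2.00). Depth is unknown.

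From these, the 30000 highest-scoring autosomal summits per library were kept, ties being broken with a fixed seed, and assigned to the nearest of 20665 protein-coding spans (RefSeq, GRCm38.p6) within 100 kb. NFIA and NFIB libraries of a preparation were summed, or their log2 ranks averaged, a gene without a gene-end summit getting rank 30001. Stages were compared with limma 3.58.1 (R 4.3.3, trend, empirical Bayes, Benjamini-Hochberg over all genes), tested on simulated data, with a pseudocount of 0.5, which understates changes of low genes. Promoters came from RefSeq; 31 of 42 genes matched. Python 3.11.15 was used.

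The genes and lists were chosen with earlier results of these data known. Values were given for genes called, the 3 largest changes either way, the extremes of gene-end presence and rank, and every changed region; the genes at which other summit positions are quoted, and Trp53's ranks by library, were singled out after their values were seen. Alternatives covered list length, ties, windows, target, chromosome, date, pairing and left-out preparations.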

Additional observations from a re-analysis of the deposited data

How the results depend on the processing

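Cenpu alone was called in hyperplasia against GNPs, and 0 genes of the 42 with 15000 summits, scores of at least 5, all summits scaled, the other tie seed, NFIB libraries only, centering by chromosome, title date as a term, a pseudocount of 2, a filter of a mean of 1 summit and the replicate block. Leaving out preparations gave 0 to 1. Its log2 difference kept its sign in 21 of 21 alternatives (0.58 to 0.85), as did the tumor difference (0.57 to 1.26), which was 0.57 with 15000 summits (adjusted p = 0.316). In tumors against GNPs the count was 0 with 15000 summits, scores of at least 5 and the replicate block, and 0 to 1 without single preparations; with all summits scaled it was 1, E2f2 in place of Cenpu. The rank test of tumors against hyperplasia gave 1, E2f3, with the replicate block or when hyperplasia lacked its second NFIA library. Same-numbered preparations correlated at −0.00176 to 0.0814, so the numbers were not taken to pair them; each GNP preparation correlated best with its own number in both later stages, hyperplasia 1 and 2 did not with tumors. With the replicate block, calls over all genes went from 15, 21 and 5 to 0, 1 and 1 for summits and from 31, 69 and 110 to 154, 229 and 424 for ranks.

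Over all alternatives, calls over all genes ran from 0 to 53, 0 to 312 and 0 to 17 for summits in hyperplasia against GNPs, tumors against GNPs and tumors against hyperplasia, and from 1 to 154, 2 to 229 and 0 to 424 for ranks, the lowest with scores of at least 5 and with NFIA libraries only. Gene-end shares of the 42 genes in GNPs, hyperplasia and tumors were 67.9%, 65.9% and 67.1% with a 500 bp window (all genes 32.0%, 31.3% and 28.9%) and 57.5%, 56.7% and 50.4% with 15000 summits (22.9%, 23.6% and 20.4%). They were 78.6%, 76.6% and 77.8% with a 2 kb window (41.1%, 40.4% and 38.3%) and 83.7%, 79.8% and 73.4% with scores of at least 5 (43.6%, 41.6% and 36.1%), where list lengths differ and tumors were lowest in both. At starts only, over the 31 genes with a known strand, the shares were 77.4%, 74.7% and 76.3% (all 16457 genes with a strand 37.1%, 36.4% and 33.6%). Over the 42 genes, hyperplasia gave 69.8% with NFIA and 77.0% with NFIB libraries only, and 77.8% without its second NFIA library. Changed regions numbered 1, 0 and 0 with 15000 summits, 1 for tumors against GNPs and 0 for tumors against hyperplasia when 6 of 6 against 0 of 6 was required, and 0 for tumors against hyperplasia with 50 bp each way, where 1 region was lost in tumors against GNPs.

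Small whole numbers of summits, fixed list lengths and unknown depth limit these comparisons: a site not listed is not shown to be unbound, and with 3 preparations a stage a missed threshold does not show equality. Motif searches covered promoters with a RefSeq entry only. Title dates of tumors differ from those of the other stages, so date and stage cannot be told apart there.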
